A study of Mus musculus with 8 samples.

Results

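The genes described here are 10 subunits of the BAF chromatin remodelling complex whose transcripts are known to differ between the complexes of embryonic stem cells (ESCs), neural precursor cells (NPCs) and neurons. They were chosen by name, and all 10 were among the 26263 genes counted and passed the low-count filter that left 16399 genes for testing. Poly(A) RNA was sequenced from undifferentiated ESCs and from NPCs after 12 days of *in vitro* corticogenesis, with 2 replicates per stage for each of 2 reciprocal crosses (8 libraries in 4 groups). The B/J cells were line BJE2 (C57BL/6 × JF1) and the J/B cells line JBE6 (JF1 × C57BL/6). Both were male hybrid lines with no other allele, each cross is represented by 1 line, and the NPCs were derived from the same lines. The ESCs grew in a medium with LIF, BMP4 and a GSK3-β inhibitor, and the NPCs were differentiated in a defined default medium with B27 and dorsomorphin homolog 1. Replicates were labelled only as replicates, so the p-values measure the spread between these libraries, which may be technical.

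BAF complexes slide and evict nucleosomes with the energy of ATP, using either BRG1 (*Smarca4*) or BRM (*Smarca2*) as the motor. Several positions in the complex are filled by members of small gene families, and a cell's complex is known to change these members as it passes from pluripotency to a neural precursor and then to a postmitotic neuron. Textbook descriptions place BAF53a (*Actl6a*), BAF45a (*Phf10*) and SS18 in precursors and BAF53b (*Actl6b*), BAF45b or BAF45c (*Dpf1*, *Dpf3*) and CREST (*Ss18l1*) in neurons, and place BAF170 (*Smarcc2*) in neural but hardly in pluripotent cells. The repressor REST and the microRNAs miR-9* and miR-124 are the regulators known for the *Actl6a* and *Actl6b* step.

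The sequences below are shown because they hold matches to the element that REST binds and to miR-9*. Whether the regulators act through these matches was not tested. The first is the *Actl6b* promoter of RefSeq, from 250 bases before to 50 bases after the annotated start (GRCm38.p6, chr5:137553296-137553595, plus strand). Its capitals mark matches to the 2 half-sites of the RE1 element that REST binds, TCAGCACC and GGACAG, which lie on the minus strand.

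*Actl6b* promoter: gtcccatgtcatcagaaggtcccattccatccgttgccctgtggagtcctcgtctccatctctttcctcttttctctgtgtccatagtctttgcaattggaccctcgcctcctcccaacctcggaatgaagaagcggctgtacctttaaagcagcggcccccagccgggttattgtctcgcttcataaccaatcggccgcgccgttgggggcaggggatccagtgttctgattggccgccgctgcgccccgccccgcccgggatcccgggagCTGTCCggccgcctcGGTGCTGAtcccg

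*Actl6b* half-sites read on the minus strand: TCAGCACCgaggcggccGGACAG

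The half-sites of *Actl6b* lay 9 bases apart at chr5:137553568-137553590 (GRCm38.p6), 23 to 45 bases after the start. TCAGCACC was present on either strand in 1.716% and GGACAG in 23.03% of the 16199 RefSeq promoters of tested genes. The pair in this order on one strand, at most 20 bases apart, was found in 17 promoters (0.105%) and in that of 1 of the 9 members with a promoter in the table. Of the 17 genes, which include *Actl6b* itself, 9 were called higher in NPCs, 4 were called lower and 4 were not called. Of all tested genes, 37.5% were higher, 31.9% lower and 69.4% called in either direction. *Ss18*, which lies on chromosome 18, had no promoter in the table. The matches describe these windows only and do not show binding.

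The other sequences are miR-9* (mmu-miR-9-3p in RefSeq), with its seed of bases 2 to 8 in capitals, and its match in the 3′ UTR of *Actl6a* (GRCm39, chr3:32780774-32780797, plus strand), with the 7 matching bases in capitals.

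mmu-miR-9-3p: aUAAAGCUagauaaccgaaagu

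*Actl6a* 3′ UTR window: cacctcaacgtctgtAGCTTTAgt

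AGCTTTA began 90 bases after the stop codon in a 3′ UTR of 429 bases. None of the other 9 members had this match, although all of them except *Actl6b* (196 bases) have a longer 3′ UTR in the annotation, up to 3478 bases in *Ss18*. Of 14910 genes with an annotated 3′ UTR, 16.19% held the match, and among the 932 genes with a 3′ UTR of similar length 2.897% did.

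The libraries held 22537138 to 32706015 counted reads, so that 1 count corresponded to 0.0306 to 0.0444 CPM (counts scaled to the library total). TMM factors, which correct for RNA composition, were 0.820 to 0.885 in ESCs and 1.14 to 1.21 in NPCs. Over all genes, the median log2 fold change between the stages was therefore 0.17 with TMM and 0.65 on library totals. It was 0.80 when scaled to *Gapdh*, *Gusb* and *Tbp*. Of these 3 housekeeping genes, edgeR with TMM called 2 as falling from ESCs to NPCs and 0 as rising (-1.43 to 0.23). Their summed level was 3892 to 5207 CPM in ESCs and 2025 to 2631 CPM in NPCs. Scaling to them thus assumes a steadiness that neither TMM nor library totals showed. Fold changes below use TMM unless another scale is named. The identity labels were checked against marker lists. All 10 pluripotency markers were lower in NPCs (*Pou5f1*, log2 fold change -6.26), 9 of 10 neural precursor markers were higher (*Nes*, 2.09) and *Pax6* was not called (1.77, edgeR's adjusted p = 0.0606). Of 10 neuron markers, 9 were higher (*Dcx*, 10.86) and 1 was lower. These are bulk libraries, in which fewer cells of a type and less RNA per cell cannot be told apart.

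Between ESCs and NPCs, 5 of the 10 subunits were higher in NPCs, 3 were lower and 2 were not called. *Actl6b*, *Dpf3*, *Smarca2*, *Smarcc2* and *Ss18l1* rose, *Actl6a*, *Ss18* and *Smarca4* fell, and *Phf10* and *Dpf1* did not pass the threshold. Among all genes tested, 37.5% were called higher, 31.9% lower and 69.4% in either direction, so that 8 of 10 was not far from the share of genes at large. The median log2 fold change of the members was 0.66 against 0.17 over all genes tested. On TMM-normalized CPM every NPC library was above every ESC library for 5 members and below for 3, which 35.3% and 31.2% of all tested genes did.

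**Figure D1:**
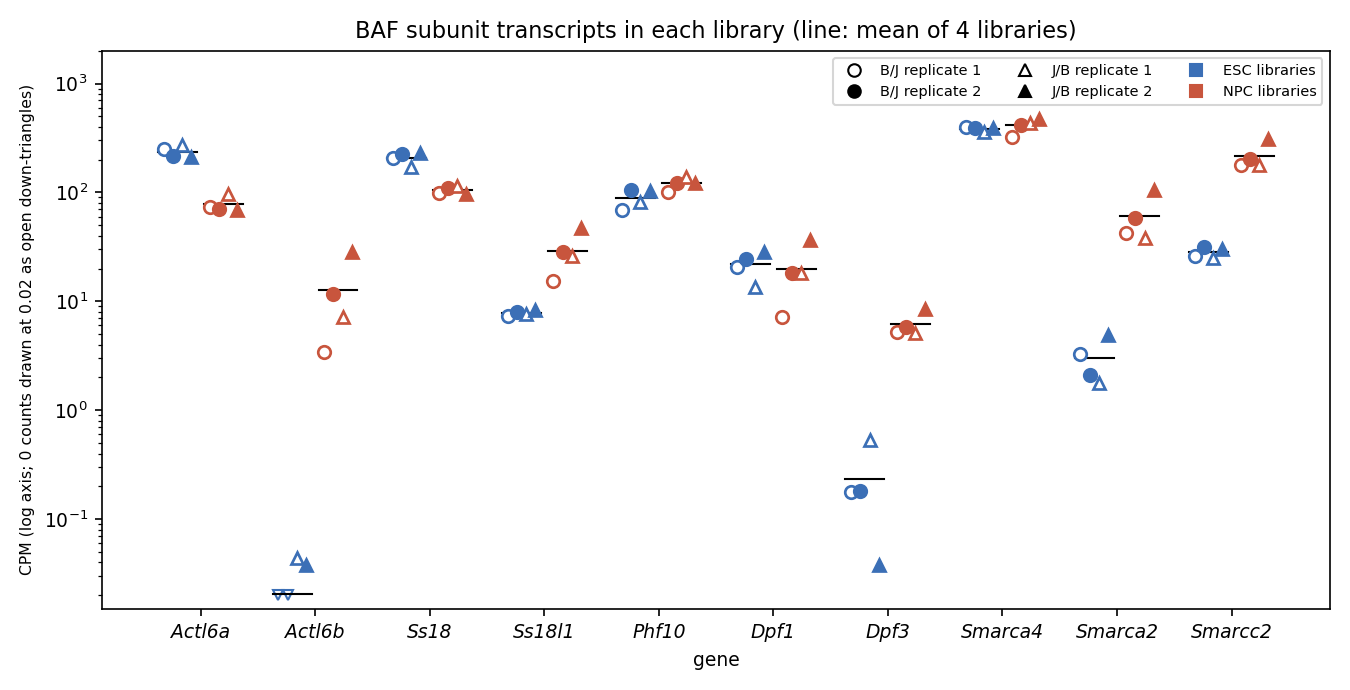
CPM of the 10 BAF subunits in each of the 8 libraries on a log axis, with ESC libraries in blue and NPC libraries in red, circles for B/J and triangles for J/B, open for replicate 1 and filled for replicate 2. The red and blue points are separate for all members except *Phf10*, *Dpf1* and *Smarca4*, and for *Actl6b*, *Ss18l1*, *Dpf1* and *Smarca2*, among others, the filled NPC points lie above the open NPC points of the same cross.

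The actin-related subunit BAF53 is encoded by *Actl6a*, the form of dividing cells, and *Actl6b*, the form of neurons. *Actl6b* (GRCm39, chr5:137551767-137567844, plus strand) had 0 counts in both B/J ESC libraries and 1 count in each J/B ESC library. In NPCs it had 105 counts (3.41 CPM) in B/J replicate 1, 312 (11.7 CPM) in B/J replicate 2, 234 (7.15 CPM) in J/B replicate 1 and 728 (28.4 CPM) in J/B replicate 2. All NPC libraries were above all ESC libraries, and the NPC libraries differed among themselves by 8.34-fold. The ratio of pooled counts, 1379 in NPCs to 2 in ESCs, was 448-fold with TMM factors (95% exact counting interval 124 to 3701) and 623-fold on library totals (172 to 5149). The total-based ratio was 378-fold without NPC J/B replicate 2, 977-fold without ESC J/B replicate 1 and 930-fold without ESC J/B replicate 2. In B/J alone, with a floor of 3 counts for the pair of ESC libraries, *Actl6b* was at least 97.1-fold higher in NPCs with TMM factors. The call in edgeR's quasi-likelihood test had an adjusted p of 2.63e-04, between 5.14e-16 and 0.0092 over the alternatives.

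*Actl6a* (GRCm39, chr3:32760447-32781128, plus strand) was at 252 and 217 CPM in B/J ESCs and at 270 and 211 CPM in J/B ESCs. It was at 74.1 and 70.9 CPM in B/J NPCs and at 97.0 and 68.3 CPM in J/B NPCs. Every NPC library was below every ESC library, and the log2 fold change was -2.10 (standard error 0.177, a 4.28-fold fall, edgeR's adjusted p = 4.85e-05). The fall was -2.17 within B/J and -2.03 within J/B. *Actl6a* was still the more abundant BAF53 transcript in every NPC library. Per kilobase of exon, *Actl6b* made up 3.51% and 11.6% of the 2 BAF53 transcripts in B/J NPCs and 5.51% and 24.8% in J/B NPCs, against at most 0.0142% in any ESC library.

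SS18 and its relative CREST (*Ss18l1*) occupy another exchangeable position, the latter known for calcium-responsive transcription in neurons. *Ss18l1* (GRCm39, chr2:179684290-179711995) was at 7.37, 7.92, 7.68 and 8.41 CPM in the ESC libraries, a narrow range. It was at 15.3 and 28.2 CPM in B/J NPCs and at 25.8 and 46.8 CPM in J/B NPCs, all above the ESCs. Its log2 fold change was 1.36 (standard error 0.271, edgeR's adjusted p = 0.0027), 1.03 within B/J (adjusted p = 0.0494) and 1.69 within J/B (adjusted p = 0.0082). The call over both crosses was lost with the libraries of number 1 alone (0.91). The B/J call was lost with limma-voom (0.96, adjusted p = 0.110) and without any of 5 libraries, with its smallest value of 0.56 (adjusted p = 0.291) without NPC B/J replicate 2. It was also lost without ESC B/J replicate 1 (0.166), ESC B/J replicate 2 (0.146), ESC J/B replicate 1 (0.0594) or ESC J/B replicate 2 (0.0595, each an adjusted p from edgeR), fits of fewer libraries in which the fold change stayed between 1.01 and 1.05, and over all alternatives that adjusted p lay between 0.0139 and 0.291. The J/B call was lost without NPC J/B replicate 2 (1.20, adjusted p = 0.0651 from edgeR, between 1.50e-04 and 0.0651 over the alternatives).

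*Ss18* was at 206, 226, 170 and 229 CPM in the ESC libraries and at 98.6, 109, 115 and 97.4 CPM in the NPC libraries. The groups did not overlap, and the log2 fold change was -1.46 (standard error 0.134, edgeR's adjusted p = 6.57e-05), -1.52 within B/J and -1.39 within J/B. *Ss18l1* supplied 8.86% ± 0.974 (SD, n = 4) of the transcripts of this pair per kilobase in ESCs and 39.9% ± 11.2 (SD, n = 4) in NPCs. In NPC J/B replicate 2 the share was 55.0%, the single library in which *Ss18l1* exceeded *Ss18* per kilobase. With the longest transcript as the length, the mean shares were 4.38% in ESCs and 24.3% in NPCs, and *Ss18l1* exceeded *Ss18* in no library (36.6% in NPC J/B replicate 2).

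Among the members, the plant homeodomain subunits of the BAF45 family are *Phf10* (BAF45a), *Dpf1* (BAF45b) and *Dpf3* (BAF45c), and they read histone tails. The family also holds *Dpf2* (BAF45d), given below with the other subunits. *Phf10*, the form of precursors, was at 68.6, 106, 82.0 and 103 CPM in ESCs and at 101, 123, 139 and 122 CPM in NPCs, with overlapping groups. Its log2 fold change was -0.05 with TMM (95% interval -0.42 to 0.33, edgeR's adjusted p = 0.807) but library totals gave 0.43 (adjusted p = 0.0617) and scaling to the housekeeping genes gave 0.58 (adjusted p = 0.0348), so its direction depended on the scaling. The median gene moved by 0.17, 0.65 and 0.80, and *Phf10* lay below it in all 3. A scaling shifts all genes nearly alike, so this likeness adds nothing on the direction of *Phf10*. Over the alternatives its adjusted p was between 0.0348 and 0.988.

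*Dpf3* (GRCm39, chr12:83259848-83534556, minus strand) is known from neurons and also from heart and skeletal muscle. It had 5, 5, 12 and 1 counts in the ESC libraries and 160, 156, 168 and 219 counts in the NPC libraries, or 0.0377 to 0.532 CPM and 5.14 to 8.55 CPM. All NPC libraries were above all ESC libraries, and the NPC libraries spanned 1.66-fold. The log2 fold change was 4.27 (standard error 0.662, edgeR's adjusted p = 7.83e-04), 4.44 within B/J and 4.09 within J/B. It was 5.68 without ESC J/B replicate 1, which held 12 of the 23 ESC counts, and 3.80 without ESC J/B replicate 2. Within J/B these 2 values were 6.92 and 3.16. Pooled counts gave a 19.8-fold ratio with TMM factors (95% exact counting interval 13.1 to 31.5). Of 10 heart muscle markers, 8 were tested, of which 5 were higher and 2 lower in NPCs. Their summed level was 6.80 to 10.9 CPM in ESCs and 17.2 to 52.7 CPM in NPCs, where B/J replicate 2 was lowest and J/B replicate 1 highest while *Dpf3* was highest in J/B replicate 2. None of the 10 heart markers was at 0 in all NPC libraries, *Tbx5* was at 0 in all ESC libraries, and their part in the *Dpf3* result was not tested.

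*Dpf1* (GRCm39, chr7:29003363-29017668, plus strand), the other neuronal BAF45 form, did not follow *Dpf3*. It was at 20.8 and 24.3 CPM in B/J ESCs and at 13.5 and 28.5 CPM in J/B ESCs. It was at 7.17 and 18.2 CPM in B/J NPCs and at 18.1 and 36.5 CPM in J/B NPCs, so that the lowest and the highest value of all 8 libraries were both in NPCs. The log2 fold change was -0.71 (95% interval -1.57 to 0.16, edgeR's adjusted p = 0.124), -1.31 within B/J (adjusted p = 0.0679) and -0.10 within J/B (adjusted p = 0.881). A call of lower *Dpf1* appeared under 2 of the alternatives. One was edgeR with replicate number as a block (-0.78, adjusted p = 0.0138), the other the fit lacking NPC B/J replicate 2 (-1.10). Over the alternatives the adjusted p of *Dpf1* ran from 0.0138 to 0.918. Within B/J it was called lower under 4 alternatives. These were DESeq2 (-1.30, adjusted p = 0.0318), limma-voom (-1.47, adjusted p = 0.0456), edgeR with the replicate block (-1.47, adjusted p = 0.0065) and the fit lacking NPC B/J replicate 2 (-2.09). Its adjusted p there lay between 0.0065 and 0.330. Within J/B the direction turned on library totals (0.37) and on scaling to the housekeeping genes (0.65).

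The 2 ATPases share one position, and each complex holds a single motor. *Smarca2* (GRCm39, chr19:26582450-26755722, plus strand) was at 3.27, 2.12, 1.77 and 4.87 CPM in ESCs and at 42.1, 58.1, 38.3 and 105 CPM in NPCs. The groups were far apart, and the log2 fold change was 3.84 (standard error 0.443, a 14.3-fold rise, edgeR's adjusted p = 1.87e-04), 3.73 within B/J and 3.95 within J/B. Leaving out NPC J/B replicate 2 gave 3.06 within J/B and 3.40 over both crosses, and leaving out ESC J/B replicate 2 gave 4.81 and 4.27.

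*Smarca4* (GRCm39, chr9:21527398-21615526, plus strand) was at 398, 389, 361 and 388 CPM in ESCs and at 323, 418, 437 and 477 CPM in NPCs, with overlapping groups. On TMM-normalized CPM its NPC libraries (283 to 394) were all below its ESC libraries (434 to 485). The log2 fold change was -0.38 (95% interval -0.66 to -0.10, edgeR's adjusted p = 0.0238) with TMM, but library totals gave 0.10 (adjusted p = 0.504) and the value was 0.26 (adjusted p = 0.185) when scaled to the housekeeping genes, so that the sign turned with the scaling. Set against the median gene of each scaling, *Smarca4* differed by -0.55, -0.55 and -0.54. A scaling shifts all genes nearly alike, so this likeness follows from the scaling and adds no support for a fall. The TMM call was lost without NPC B/J replicate 1 (-0.31, adjusted p = 0.0851), ESC B/J replicate 1 (0.0789), NPC J/B replicate 1 (0.0630), ESC J/B replicate 2 (0.0611), ESC B/J replicate 2 (0.0529) or ESC J/B replicate 1 (0.0519, each an adjusted p from edgeR), with a fold change between -0.40 and -0.35 in the latter 5 fits. Within B/J the change was -0.56 (adjusted p = 0.0254) and within J/B -0.20 (adjusted p = 0.354). The B/J call was lost without ESC B/J replicate 1 (-0.51), ESC B/J replicate 2 (-0.61) or NPC B/J replicate 1 (-0.41). It was lost as well when library totals (-0.09, adjusted p = 0.691) or the housekeeping genes (-0.04, adjusted p = 0.902) set the scale in edgeR. Over all alternatives the adjusted p of the stage change ran from 0.0094 to 0.504.

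*Smarcc2* (GRCm39, chr10:128294424-128326456, plus strand) encodes BAF170, a scaffold subunit that forms dimers with itself or with BAF155 (*Smarcc1*). It was at 26.3, 31.8, 25.2 and 30.3 CPM in ESCs and at 177, 205, 180 and 308 CPM in NPCs. No library of one stage reached the range of the other. The log2 fold change was 2.45 (standard error 0.191, a 5.46-fold rise, edgeR's adjusted p = 3.76e-05), 2.25 within B/J and 2.65 within J/B, and between 2.24 and 2.60 without any 1 library. *Smarcc1*, the partner that dominates in pluripotent cells, fell from 417 to 274 CPM (log2 fold change -1.08, standard error 0.156, edgeR's adjusted p = 5.31e-04). *Smarcc2* made up 7.21% ± 0.602 (SD, n = 4) of the 2 transcripts per kilobase in ESCs and 46.7% ± 6.76 (SD, n = 4) in NPCs, where it passed *Smarcc1* in J/B replicate 2 (56.1%).

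**Figure D2:**
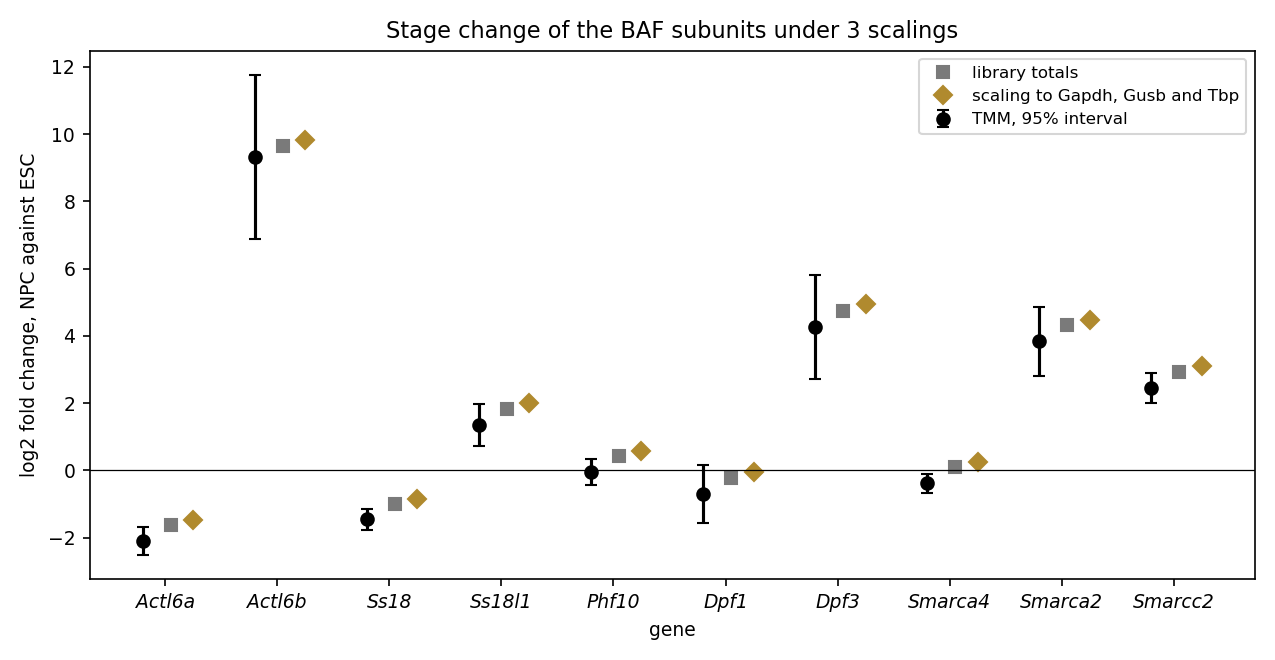
Log2 fold change of each BAF subunit, NPC against ESC over both crosses, with TMM factors (black, bars are 95% intervals of the fit), on library totals (grey squares) and scaled to the housekeeping genes (gold diamonds). The 3 scalings keep the sign of 8 members, while *Smarca4* and *Phf10* are below 0 with TMM and above 0 with the other 2.

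The ratio of the 2 genes of a family within one library does not depend on the scaling, and 6 such pairs were compared by exact permutation (two-sided, 4 NPC and 4 ESC libraries), whose smallest possible p is 0.0286. That p, or 0.0343 after adjustment over the 6 pairs, was reached by 5 pairs, in each of which every NPC ratio was above every ESC ratio. The log2 ratio rose by 9.78 for *Actl6b* to *Actl6a*, where it rests on 2 ESC counts and the 0.5 added to each count, by 4.57 for *Dpf3* to *Phf10*, by 4.23 for *Smarca2* to *Smarca4*, by 3.50 for *Smarcc2* to *Smarcc1* and by 2.75 for *Ss18l1* to *Ss18*. The ratio of *Dpf1* to *Phf10* differed by -0.74 with overlapping groups (exact permutation p = 0.171). The direction was the same in each cross for all 6 pairs, but the *Dpf1* ratio moved by -1.36 in B/J, as against -0.12 for J/B.

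**Figure D3:**
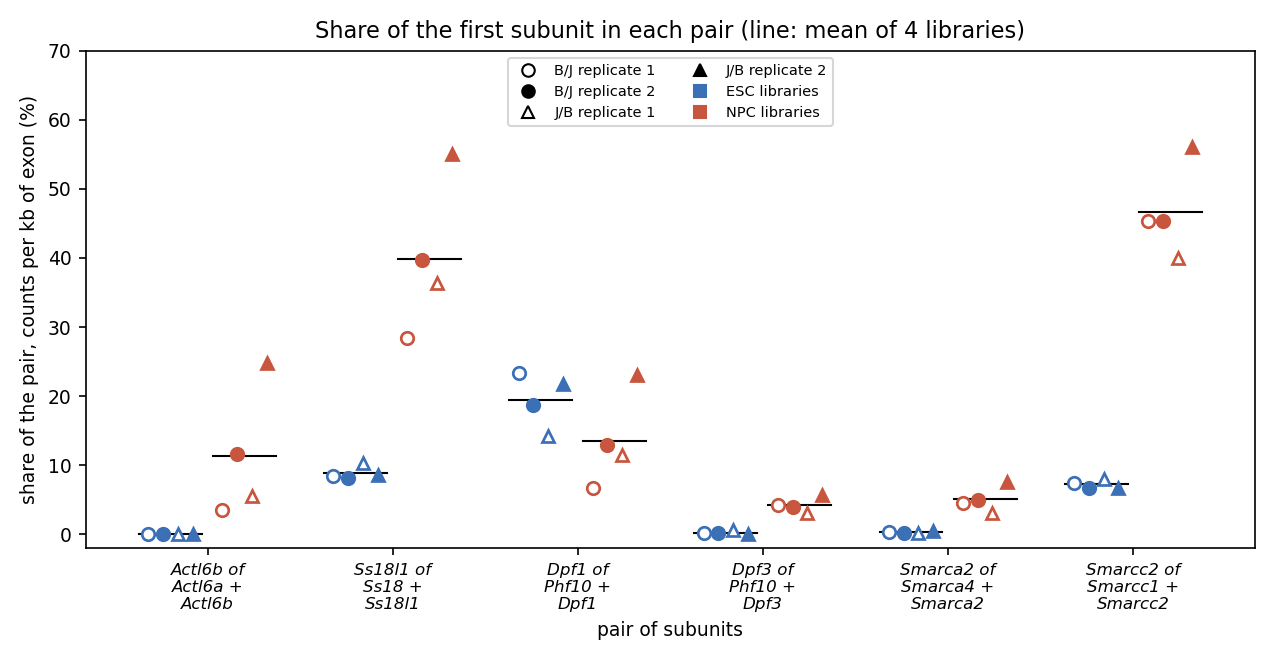
Share of the first-named subunit in its pair, as a percentage of the counts per kilobase of exon of both genes, in each ESC (blue) and NPC (red) library, with black lines at the mean of 4 libraries. The shares of *Ss18l1* and *Smarcc2* reach 39.9% and 46.7% on average in NPCs, those of *Actl6b*, *Dpf3* and *Smarca2* stay at 11.3%, 4.26% and 5.03%, and that of *Dpf1* overlaps between the stages.

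The exchanges thus differed in extent. Per kilobase of exon, the neural form was still the minor one on average in all 6 pairs in NPCs, at 11.3% ± 9.58 for *Actl6b*, 4.26% ± 1.08 for *Dpf3*, 5.03% ± 1.82 for *Smarca2* and 13.5% ± 6.87 for *Dpf1* (SD, n = 4 each). In ESCs the corresponding shares were 0.0068%, 0.241%, 0.286% and 19.5%. The shares of *Dpf3* and *Dpf1* are taken against *Phf10* alone and leave out *Dpf2*, so they are not shares of all BAF45 transcripts. The choice of length mattered for *Smarca2*, whose NPC share was 10.95% with the longest transcript, and for *Ss18l1*, whose share was 24.3% instead of 39.9%. It mattered less for *Actl6b* (9.62%), *Dpf3* (5.53%), *Dpf1* (17.9%) and *Smarcc2* (42.6%).

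On levels per kilobase of exon scaled to library totals (RPKM), *Actl6a* (60.2) and *Smarca4* (58.4) were the most abundant members in ESCs and their ranges overlapped. *Ss18* (17.8) and *Phf10* (15.1) followed, also with overlapping ranges, and then *Smarcc2* (3.75) and *Dpf1* (3.66), which overlapped too. *Ss18l1* (1.71), *Smarca2* (0.169) and *Dpf3* (0.0338) came next in separate steps, and *Actl6b* (0.0041) was last with a range overlapping that of *Dpf3*. In NPCs the order by RPKM was *Smarca4* (62.9), *Smarcc2* (28.7), *Phf10* (20.3), *Actl6a* (19.7), *Ss18* (9.003), *Ss18l1* (6.34), *Smarca2* (3.41), *Dpf1* (3.36), *Actl6b* (2.54) and *Dpf3* (0.898). *Smarca4* was separated from the rest by a gap. *Smarcc2* (23.4 to 40.6) lay just above *Phf10* but overlapped *Actl6a* (17.3 to 24.6), and both *Phf10* and *Actl6a* lay above *Ss18*. From *Ss18* downwards each neighbour's range overlapped the next. With the longest transcript in place of all exons, *Actl6a* moved to second place in NPCs (38.5 RPKM) and *Smarcc2*, at 35.5 RPKM, to the place below it, and *Smarca2* (8.03 RPKM) stood above *Ss18l1* (6.53 RPKM). On that length the ESC order changed too. *Actl6a* (104 to 134 RPKM) then lay above *Smarca4* (55.3 to 60.9 RPKM) and *Ss18* (31.9 to 42.8 RPKM) above *Phf10* (15.2 to 23.5 RPKM), both without overlap, and *Dpf1* (6.85 RPKM) ranked above *Smarcc2* (4.64 RPKM) with overlapping ranges.

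Within the NPC libraries the members did not vary alike. The highest CPM of *Actl6b*, *Dpf1*, *Dpf3*, *Ss18l1*, *Smarca2*, *Smarca4* and *Smarcc2* was in J/B replicate 2, and that of *Actl6a*, *Phf10* and *Ss18* was in J/B replicate 1. The highest NPC library exceeded the lowest by 8.34-fold for *Actl6b*, 5.09-fold for *Dpf1*, 3.05-fold for *Ss18l1* and 2.73-fold for *Smarca2*. The range was narrower, between 1.18-fold and 1.74-fold, for the other 6 members. The summed level of the 10 neuron markers was 394 and 1414 CPM in B/J NPCs and 1088 and 2196 CPM in J/B NPCs, after 288 to 383 CPM in ESCs, and no neuron marker was at 0 in all libraries of a stage. *Actl6b*, *Dpf1* and *Ss18l1* stood in the same order over the 4 NPC libraries as this sum on TMM-normalized CPM, as did 11.5% of all tested genes, and the part of neuronal RNA in these differences was not tested. The sum of the neural precursor markers was 800 and 1545 CPM in B/J NPCs and 2039 and 1817 CPM in J/B NPCs, with the highest value in J/B replicate 1.

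Markers of other cell types also moved between the stages, and their part in the members' changes was not tested. Trophoblast markers summed to 76.5 to 193 CPM in ESCs and to 1360 to 3600 CPM in NPCs, with 8 of 10 higher, and the fibroblast markers at 1444 to 1837 and 2490 to 3907 CPM, with 8 of 10 higher. Glial markers were at 47.9 to 75.9 and 124 to 201 CPM, with 4 higher and 3 lower of 10. Endoderm markers were at 10.7 to 20.7 and 85.4 to 150 CPM, with 6 higher and 1 lower of the 8 tested. No marker of these 4 lists was at 0 in all NPC libraries, and *S100b*, *Tpbpa*, *Prl3d1*, *Afp* and *Ttr* were at 0 in all ESC libraries.

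Within each cross the same families moved. In B/J, 5 members were called higher and 3 lower, beside 30.1% higher, 25.6% lower and 55.8% in either direction of all genes. In J/B, 5 were called higher and 2 lower, *Smarca4* being the one not called there, beside 29.1%, 25.3% and 54.5% of all genes. That the stage change differs between the crosses was tested directly by the interaction of stage and cross. In edgeR's quasi-likelihood test 0 members and 0 genes (0%) were called for it, with 573 genes and no member at an unadjusted p under 0.05, and DESeq2 called 11 genes. The largest interaction estimates among members that were well counted in both stages were 1.21 for *Dpf1* (standard error 0.744), 0.65 for *Ss18l1* (standard error 0.534) and 0.41 for *Smarcc2* (standard error 0.363), and none of them was called. With replicate number as a block within each stage, added after the data were seen, edgeR's unadjusted p was 0.0077 for *Dpf1* (1.34) and 0.0458 for *Ss18l1* (0.65). Their adjusted p were 0.359 and 0.476, and no other member had an unadjusted p under 0.05.

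J/B and B/J were also compared within each stage. In ESCs, edgeR called 0 members and 0 genes (0%), with 346 genes and no member at an unadjusted p under 0.05, and DESeq2 called 10 genes. In NPCs, edgeR called 0 members and 1 gene (0.0061%), with 1050 genes and no member at an unadjusted p under 0.05, and DESeq2 called 70 genes. The estimates in NPCs were 1.19 for *Actl6b* (standard error 0.795), 1.06 for *Dpf1* (standard error 0.530) and 0.69 for *Ss18l1* (standard error 0.375) in the direction of J/B, and none of them was called. On TMM-normalized CPM, J/B was above B/J at both replicate numbers for each of these 3 genes. With the block within each stage, edgeR's unadjusted p was 0.0155 for *Actl6b*, 0.0037 for *Dpf1* and 0.0084 for *Ss18l1*. The adjusted p of these 3 genes lay between 0.119 and 0.176, and no other member had an unadjusted p under 0.05. DESeq2 and the other 17 alternatives run for these 3 comparisons, which leave out the fits on libraries of 1 number alone, called 0 members.

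The other 21 genes of the BAF family in the list, which encode the core, the accessory and the alternative subunits of PBAF and ncBAF, were all tested. In NPCs 7 were higher, 6 were lower and 8 were not called, with a median log2 fold change of 0.14. Over all genes tested the median was 0.17, with 37.5% called higher and 31.9% lower. The largest rises belonged to *Bcl11b* (3.25) and *Bcl11a* (2.44), zinc finger subunits known from cortical neurons, and to *Smarcd3* (2.04), the BAF60c subunit of heart and neural tissue. *Smarcd1*, its BAF60a relative, fell by 1.001, while *Smarcd2* (BAF60b) was not called (-0.13). Of the ARID subunits that define the canonical complex, *Arid1a* fell (-0.81) and *Arid1b* rose (1.08). *Bcl7a* (1.11), *Bcl7c* (0.83) and *Smarce1* (0.60) rose as well, and *Bcl7b* (-0.63) and *Actb* (-0.46) fell.

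For the alternative complexes, *Bicral*, a GLTSCR1-like subunit of ncBAF, fell by 2.14 on the log2 scale. Its relative *Bicra* (0.42) and the ncBAF subunit *Brd9* (0.42) were not called, nor were the PBAF subunits *Arid2* (0.14), *Pbrm1* (-0.03) and *Brd7* (0.31). The core subunit *Smarcb1* (-0.24) and the ubiquitous BAF45d subunit *Dpf2* (-0.22) were not called either. These counts moved with the scaling, to 12 higher and 3 lower on library totals and to 15 higher and 1 lower when scaled to the housekeeping genes. The share of all tested genes moved in the same way, to 48.9% higher and 20.9% lower on library totals and to 51.6% higher and 17.2% lower with the housekeeping genes.

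**Figure D4:**
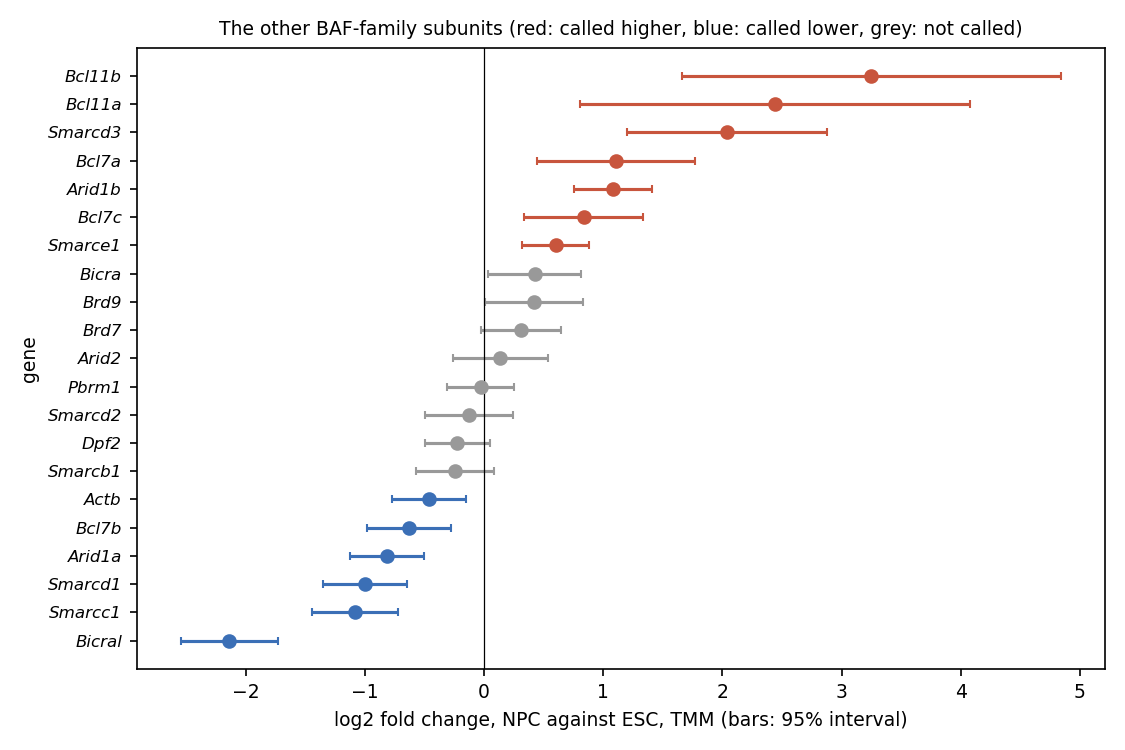
Log2 fold change, NPC against ESC with TMM factors, of the other 21 BAF-family subunits, sorted by value, with bars for the 95% interval of the fit, red for genes called higher, blue for genes called lower and grey for genes not called. *Bcl11b*, *Bcl11a* and *Smarcd3* lie farthest to the right and *Bicral* farthest to the left.

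The transcripts of the known regulators of the BAF53 step changed as well. *Rest* ranged from 202 to 230 CPM in ESCs and from 54.6 to 70.6 CPM in NPCs, without overlap (log2 fold change -2.23, standard error 0.124, edgeR's adjusted p = 1.47e-05). Its corepressor *Rcor1* was higher in NPCs (1.19, standard error 0.141, edgeR's adjusted p = 1.98e-04). The host gene of miR-124-2, *Mir124-2hg*, had 0 counts in all 4 ESC libraries and 54, 161, 208 and 172 counts in the NPC libraries, at least 129-fold higher with TMM factors when 3 counts over the ESC group are taken as the floor. *Mir124a-1hg* rose by 2.35 (edgeR's adjusted p = 0.0024). *Mir9-3hg*, one of the loci that give miR-9*, rose by 2.59 (edgeR's adjusted p = 0.0037), with 0.657 to 1.64 CPM in ESCs and 3.73, 8.31, 8.13 and 23.0 CPM in NPCs. The mature microRNAs were not measured by these libraries, and host gene counts stand only for the host transcripts.

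For *Actl6b*, *Dpf1* and *Dpf3*, the genes with the most similar profile were ranked by Pearson's r of log2(TMM-normalized CPM + 0.5) over the 8 libraries among 14081 genes, as a description. For *Actl6b* these were *Gdap1*, *Pak7*, *Gria2*, *Flrt1* and *Ptpn5* (r from 0.998 to 0.999). For *Dpf3* they were *Ltbp3*, *Serinc2*, *A930033H14Rik*, *D430019H16Rik* and *Maged1* (0.996 to 0.997). The points share the 2 stages and the 8 libraries, and 19.5% and 21.9% of these genes had r above 0.9 with *Actl6b* and *Dpf3*. For *Dpf1* 0.341% did, and the nearest genes were *Pcyox1l* (0.979), *Tex9* (0.967), *Hdx* (0.962), *Slc6a15* (0.955) and *Zfp605* (0.954).

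Exons of some members overlap counted genes on the opposite strand, and how the counting treated strand is not stated in the methods or labels. The overlap was 1474 bp with *1600012H06Rik* for *Phf10* (5956 bp of exon) and 458 bp with *Mrpl47* for *Actl6a* (3946 bp of exon). *1600012H06Rik* averaged 20.2 CPM over ESC and 40.5 CPM over NPC libraries and *Mrpl47* 29.2 and 11.8 CPM, both below the member they overlap. The overlaps of *Ss18l1* with *Psma7* (132 bp) and of *Actl6b* with *Gnb2* (94 bp) were short, but both partners were more abundant than the member. *Psma7* averaged 170 CPM in ESCs and 142 CPM in NPCs, and *Gnb2* 137 and 415 CPM. *Smarca2* overlapped *4931403E22Rik* by 40 bp and *Smarcc2* overlapped *Myl6* by 15 bp. On the same strand, *Mir8105* overlapped *Smarcc2* by 89 bp. The part of these overlaps in the counts of the members was not tested.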

How the data were processed

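Poly(A) RNA-seq of 2 ESC and 2 NPC groups was analysed from the raw read counts per gene that the authors deposited for each library, summed over both alleles and not normalized. Per their methods, paired-end reads were aligned by TopHat2 against mm39, in which SNP positions had been masked, and filtered with samtools to proper pairs of sufficient mapping quality. The submitters' processing notes also list HTSeq, DESeq2 and edgeR, and the strand setting of the counting is not given in these sources. Libraries were made with either of 2 kits and read on either of 2 instruments, and which library had which is not given, so this cannot be told apart from the groups. Reads assigned to no gene (5.76 to 10.9% of a library) were left out of totals and tests. Replicates differed by more than counting noise (chi-square over its degrees of freedom 64.5 to 90.7), so each counted as 1 sample.

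Counts were fitted in R 4.3.3 with edgeR 4.0.16 (TMM, filterByExpr with a minimum count of 10, 4 group means, robust quasi-likelihood test, Benjamini-Hochberg over all 16399 genes, threshold 0.05). Intervals of fold changes come from that fit, and counting intervals are exact at the 95% level and cover counting error only, as does the floor of 3 counts for a count of 0. Family ratios, log2 of counts with 0.5 added, were compared with exact permutation tests. Levels per kilobase used exons of the GENCODE annotation of GRCm39, with the longest transcript as an alternative. Promoters and microRNAs came from RefSeq tables (GRCm38.p6). Scripts were tested on simulated data.

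Alternatives were DESeq2 1.42.0, limma-voom (limma 3.58.1), scaling by library totals, by RLE factors or by 3 housekeeping genes (*Gapdh*, *Gusb*, *Tbp*), a replicate block (for the crosses also one within each stage, added after the data were seen), no robust estimation, either no filter on low counts or one at a mean of 1 CPM, the libraries of number 1 or 2 alone, and each library left out. A group left with 1 library was taken to vary as the others do. Named were the 10 members, every gene of the lists of other subunits and regulators, defining markers, housekeeping genes, and the 5 most similar genes of *Actl6b*, *Dpf1* and *Dpf3*. Genes overlapping a member, and markers at 0, were named for that reason after their values were seen. The members and all lists were chosen with earlier results of these data known.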

Additional observations from a re-analysis of the deposited data

How the results depend on the processing

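Calls of *Actl6b*, *Actl6a*, *Dpf3*, *Ss18*, *Smarca2* and *Smarcc2* between the stages kept their direction and their side of the threshold under all 19 alternatives, *Ss18l1* under 18 of them (0.91, edgeR's adjusted p = 0.0939, with the libraries of number 1 alone). *Smarca4* was not called from the libraries of number 1 (-0.50) or of number 2 (-0.26) by themselves. Scaling set the sign of small differences. On library totals and scaled to the housekeeping genes, log2 fold changes were 0.43 and 0.58 for *Phf10* over both crosses and 0.36 and 0.40 within B/J, 0.10 and 0.26 for *Smarca4* over both crosses and 0.29 and 0.56 within J/B, and 0.37 and 0.65 for *Dpf1* within J/B. With the libraries of number 1, *Phf10* was at 0.17. Without any 1 library, *Phf10* ranged from -0.17 to 0.11 over both crosses, from -0.36 to 0.20 within B/J and from -0.11 to 0.16 within J/B, and *Dpf1* from -0.68 to 0.50 within J/B. The cause was not tested, beyond the scaling itself.

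Of the other subunits, library totals called 12 higher and 3 lower, the housekeeping scaling 15 and 1, and the libraries of number 1 alone 4 and 3, beside 48.9% and 20.9%, 51.6% and 17.2%, and 26.5% and 22.2% of all genes tested. Of all genes, the same 2 scalings called 8016 and 8469 higher and 3421 and 2824 lower over both crosses, 2588 and 2326 within B/J, and 2494 and 1783 within J/B, and the housekeeping scaling called 7271 higher within J/B. Without any 1 library, 3212 to 5212 were called higher within B/J, and 3082 to 4582 higher and 2618 to 4037 lower within J/B, the fewest without ESC B/J replicate 1 in B/J and without NPC J/B replicate 2 in J/B. DESeq2 called 11 genes for the interaction, 10 between the crosses in ESCs and 70 in NPCs. Without a low-count filter 2 were called between the crosses in ESCs and 5 in NPCs, and in NPCs 0 on library totals, 0 with the housekeeping scaling, and 0 to 1 without any 1 library. With the difference of medians, the family ratios differed by 9.59 for *Actl6b*, 2.73 for *Ss18l1*, 4.42 for *Dpf3*, 4.32 for *Smarca2* and 3.45 for *Smarcc2* (exact permutation p = 0.0571 each). That p is the smallest which medians can give for 4 against 4 libraries without overlap, so it says nothing about stability. With a replicate block, 0 genes were called between the crosses in NPCs and *Dpf1* was called lower over both crosses (-0.78, edgeR's adjusted p = 0.0138) and within B/J (-1.47, 0.0065). Deviations of same-numbered libraries correlated at 0.613 in ESCs and 0.507 in NPCs but at 0.047 to 0.092 between the stages. Same-numbered libraries thus shared variation within a stage, of which the main fit takes no account. A block fitted within each stage, chosen after the data were seen, called 0 members for the interaction or between the crosses and 4 genes between the crosses in NPCs. There it gave 1.12 for *Dpf1* (edgeR's adjusted p = 0.119), 0.69 for *Ss18l1* (0.148) and 1.12 for *Actl6b* (0.176), whose unadjusted p were 0.0037, 0.0084 and 0.0155.

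With 2 libraries a group, the spread between NPC libraries limits *Actl6b*, *Dpf1* and *Ss18l1*, and 0 to 12 counts per library limit *Actl6b* and *Dpf3* in ESCs.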
